A study of Mus musculus with 6 samples.

Results

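Broad DPPA4 domains are the stretches of more than 4 kb that DPPA4 CUT&RUN peaks covered without a gap in mouse cells depleted of EHMT2. They were chosen on their width. The peaks of the GFP-negative and the GFP-positive list on chromosomes 1 to 19 were merged wherever they shared at least 1 bp, and 987 of the 97623 merged regions (1.01%) were wider than 4 kb. All 6 samples of the series came from 1 cell line of a BL6/129 hybrid background, cultured in FBS/LIF medium. The line carries a dTAG degron and an mCherry reporter fused to endogenous Ehmt2, together with a MERVL-GFP reporter. All groups, controls included, had been exposed to dTAG for 72 h, so no sample with intact EHMT2 was compared. Live cells were sorted by GFP into GFP-negative cells (ESCs) and GFP-positive cells (2-cell-like cells, 2CLCs), with 2 DPPA4 libraries each. The remaining samples, 1 IgG library of GFP-negative cells and 1 of bulk cells, were not analysed here.

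Each list pools the 2 libraries of its group. Values therefore carry no replicate error, and no difference between the lists was tested. Read totals after filtering were unknown for both lists, and more reads would give more and wider peaks from the same occupancy. Width, list and cover are readouts of the same peaks that chose the domains, and they are given as a description. Wilson 95% intervals on shares cover counting error alone and treat neighbouring domains as independent. Reads that match many copies were placed at a single best or random copy, and a peak on a repeat cannot tell which of its copies was bound.

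DPPA4 is a small nuclear protein of ESCs and early embryos that binds DNA through a SAP domain, usually as a partner of DPPA2. The pair is known to sit at CpG-rich promoters of developmental genes and to be needed for activation of Dux, the transcription factor that opens the programme of the 2-cell embryo. That programme includes the Zscan4 genes and MERVL, an endogenous retrovirus. A retroviral element carries the same long terminal repeat (LTR) at both ends. Just after its 5′ LTR lies a primer-binding site, which pairs with the 3′ end of a cellular tRNA to start reverse transcription. MERVL takes its last letter from leucine, the tRNA that it uses. EHMT2, the enzyme removed here, deposits H3K9me2, a mark of silent chromatin.

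The sequences below show the 3 kinds of DNA that the domains covered. One kind was a family of LTR elements, of which the 3 widest domains and one with an exact match to a tRNA are shown around their primer-binding site. Capitals mark the 18 bases after the LTR that best match the complement of a tRNA 3′ end. The tRNA-derived sequence nearest to most elements stands last, and the chr2 element matches another version, TGGTACCAGAAGTGGGGT, exactly. All are read in the direction of the element from GRCm38.p6 (mm10), at chr1:34078835-34078892 on the plus strand (an intron of Dst), chr7:11021970-11022027 on the plus strand (between genes), chr11:33062783-33062840 on the plus strand (between genes) and chr2:82727918-82727975 on the minus strand (between genes).
chr1:34078645 domain: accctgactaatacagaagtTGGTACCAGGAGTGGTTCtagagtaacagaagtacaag
chr7:11021707 domain: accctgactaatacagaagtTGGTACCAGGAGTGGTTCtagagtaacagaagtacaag
chr11:33061376 domain: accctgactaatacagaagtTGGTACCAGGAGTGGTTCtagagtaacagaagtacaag
chr2:82721565 domain: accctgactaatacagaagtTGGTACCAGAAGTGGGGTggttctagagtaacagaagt
tRNA-Leu primer-binding sequence: TGGTACCAGGAGTGGGGT
The same 58 bases stood in the 3 widest domains, on 3 chromosomes, with 3 mismatches to the closest tRNA-Leu sequence. The next 4 sequences are 150 bases of the plus strand around the summit of a domain of another kind, with CG dinucleotides in capitals. They come from the widest domain of both lists outside these families (chr10:79984946-79985095, between annotated genes), the widest domain of the GFP-negative list alone (chr15:101082300-101082449, near Fignl2), a 10-kb domain of the GFP-positive list alone (chr8:124841909-124842058, in an intron of Gm16163 and 2810004N23Rik) and a domain at Zscan4e (chr7:11305264-11305413, outside the annotated gene).
chr10:79972804 domain: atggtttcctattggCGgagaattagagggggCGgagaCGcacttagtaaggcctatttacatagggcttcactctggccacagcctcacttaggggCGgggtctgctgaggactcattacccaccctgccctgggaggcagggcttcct
chr15:101076586 domain: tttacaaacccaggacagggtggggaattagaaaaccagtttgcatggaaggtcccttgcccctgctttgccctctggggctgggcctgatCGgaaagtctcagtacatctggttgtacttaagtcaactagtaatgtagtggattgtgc
chr8:124836208 domain: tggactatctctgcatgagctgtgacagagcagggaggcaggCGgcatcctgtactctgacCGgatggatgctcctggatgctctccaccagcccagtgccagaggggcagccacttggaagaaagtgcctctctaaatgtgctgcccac
chr7:11304357 domain: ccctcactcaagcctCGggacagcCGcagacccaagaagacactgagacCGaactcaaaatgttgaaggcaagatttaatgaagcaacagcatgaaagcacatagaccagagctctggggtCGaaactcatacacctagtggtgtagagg
The last is the 30-base stretch that recurred most in a family of tandem-repeat domains, again with its CG in capitals. It occurred 232 times and was found in all 10 domains of that family.
most repeated 30-base stretch: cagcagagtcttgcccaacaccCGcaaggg

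The domains spanned 5.31 Mb in all. Their median width was 4945 bp (quartiles 4349 and 5809 bp), and the widest reached 17158 bp. Of the 987 domains, 647 (65.6%, Wilson 95% interval 62.5 to 68.5) held peaks of both lists, against a background of 34.6% of all merged regions. A further 333 (33.7%, 30.9 to 36.7) held GFP-positive peaks alone, against a background of 18.3%, and 7 (0.709%, 0.344 to 1.46) held GFP-negative peaks alone, against a background of 47.1%. A wide region has more room to take in peaks of either list, so the share with both lists follows in part from the choice by width. Before merging, 649 GFP-positive and 273 GFP-negative autosomal peaks were over 4 kb by themselves, although the GFP-negative list was the longer at 81913 autosomal peaks against 53110. A single peak made up 340 of the domains, and 217 consisted of 1 peak of each list.

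GFP-positive peaks covered 89.9% of the domain sequence and GFP-negative peaks 53.5%, with 43.4% under both. In the domains that held both lists these values were 85.6%, 80.3% and 66.0%. Merged regions of 2 to 4 kb with both lists, the most similar regions below the width limit, gave 82.8%, 83.4% and 66.1%. Both lists covered at least 50% of the domain in 528 of the 987 domains (53.5%, 50.4 to 56.6). The GFP-negative list covered under 10% in 354 domains, whereas the GFP-positive list covered under 10% in 9.

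**Figure D1:**
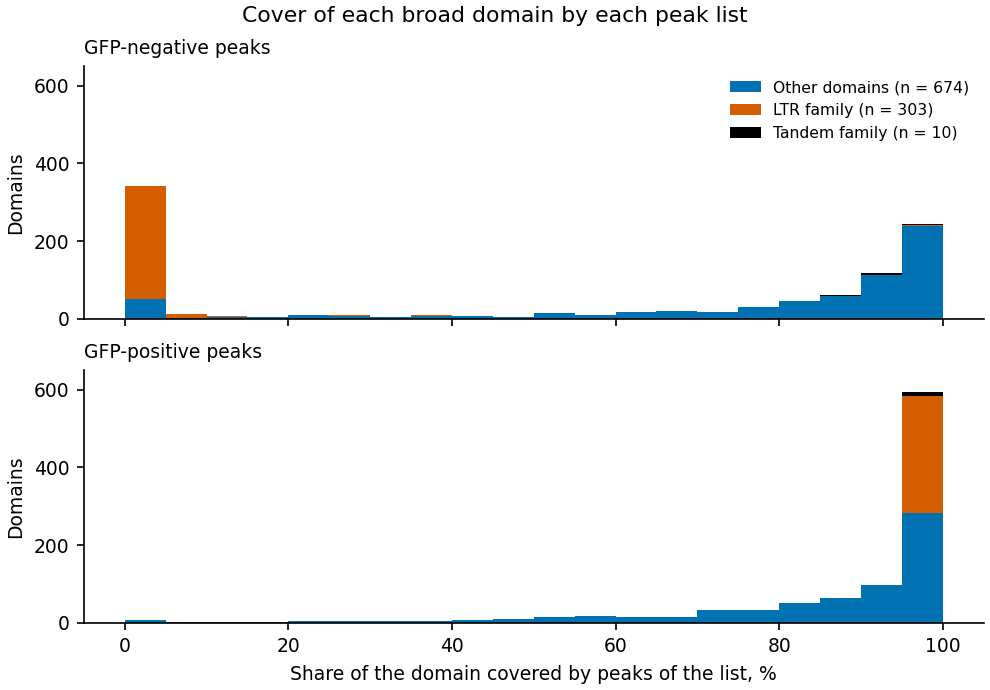
Number of domains (y axis) by the share of each domain covered by GFP-negative peaks (upper panel) and by GFP-positive peaks (lower panel), in steps of 5% (x axis), with colours for the kind of sequence. The 303 domains of the LTR family stand almost all at the low end of the GFP-negative panel and at the high end of the GFP-positive panel, while most other domains lie above 75% in each panel.

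The width limit cut through a continuous distribution. The narrowest domains were 4001 bp at Rap1gap (a GTPase activator of Rap1) and 4001 bp at Mycn, followed by 4004 bp at Mbd3 (a NuRD subunit), 4005 bp in an LTR element within 1700025G04Rik and 4006 bp in Prkd2 (a protein kinase D). The GFP-negative list covered 100% of the Rap1gap domain and the GFP-positive list 30.6%. At Mycn these shares were 93.0% and 82.2%. The widest regions left out were 4000, 4000, 3999, 3998 and 3998 bp, with GFP-positive cover between 12.03% and 100%.

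By shared sequence, the domains fell into kinds that also differed in the list they came from. Linking domains that shared 31-base words gave 12 families, and 647 domains belonged to none. The largest family held 303 domains and is called the LTR family below. A tandem-repeat family held 10. The remaining 674 domains are called other domains, of which 620 held both lists, 47 the GFP-positive list alone and 7 the GFP-negative list alone. Multi-copy sequence (a median of 10 or more genomic copies of the 31-base words in a domain) made up 319 of the 987 domains (32.3%, 29.5 to 35.3), against a background of 10.3% of all merged regions. Outside the LTR and tandem families this share was 1.93%.

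The kinds stood apart in base composition. Over all domains the median GC content was 53.7% and the median soft-masked (repeat) share 17.7%, but both were mixtures. The LTR family had a median GC content of 45.1% and was soft-masked over its whole length in the median domain. The other domains with both lists had a median GC content of 56.4% (quartiles 53.9% and 58.9%) and a soft-masked share of 12.2%. Windows of 5 kb along the autosomes had medians of 41.4% GC and 27.4% soft-masked.

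**Figure D2:**
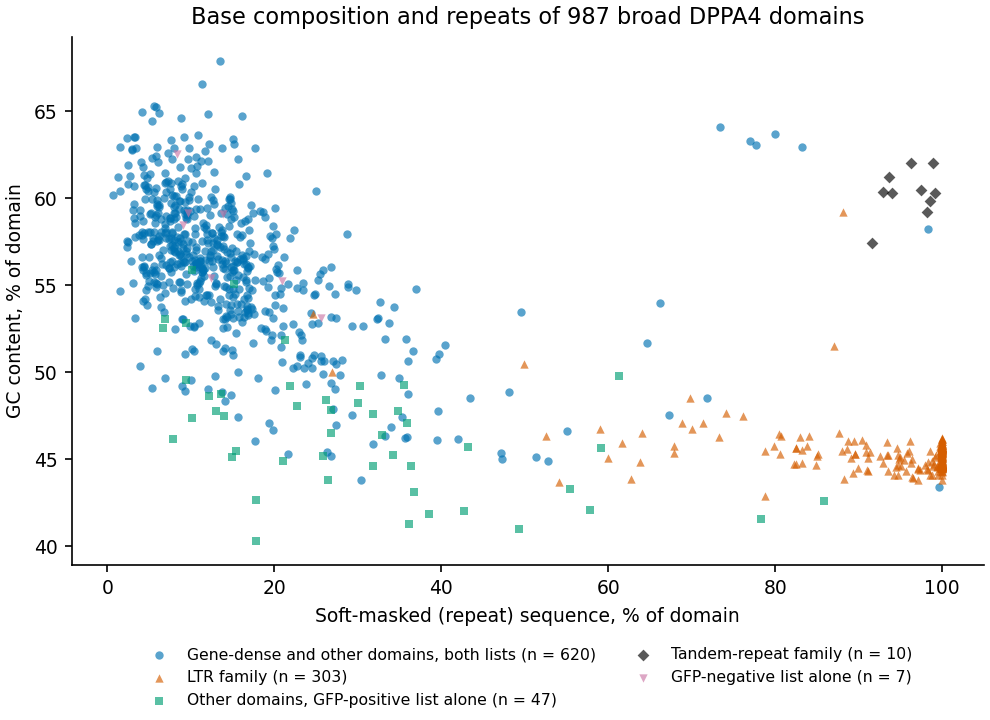
GC content (y axis, % of the domain) against soft-masked sequence (x axis, % of the domain) for the 987 domains, with 1 point per domain and symbols for its kind. LTR family domains gather at 100% soft-masked and near 45% GC, other domains with both lists lie mostly under 25% soft-masked and around 56% GC, and the 10 tandem-repeat domains sit near 60% GC and over 90% soft-masked.

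The LTR family was covered by GFP-positive peaks and almost not by GFP-negative ones. Of its 303 domains, 286 held GFP-positive peaks alone and 17 held both lists. GFP-positive peaks covered 99.9% of its 1663 kb and GFP-negative peaks 0.988%. The median domain of the family was 5352 bp wide, and the median copy number of its 31-base words was 628. The authors' fold enrichment at the summit, which is MACS2's ratio of fragments to estimated background, had a median of 5.62 among GFP-positive peaks, with a median −log10 q of 7.42. No annotated gene overlapped 178 of the 303 domains (58.7%), a share that is not set beside a background here. Start sites were found in 19 of the 303 and start sites of protein-coding genes in 7. Their density was 0.138 start sites per 10 kb, against 0.525 in 5-kb windows along the autosomes. The cells were sorted on the activity of a MERVL promoter, so occupancy of elements of that type and the sort cannot be told apart.

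The sequence of the family had the layout of an endogenous retrovirus primed by a leucine tRNA. A direct repeat of LTR type, 493 bp long at the median, flanked an element of 6433 bp at the median in 293 of the 303 domains. The best match to any of 118 tRNA-derived sequences of 18 bases was sought around the inner edge of both repeats, and it set the direction of the element. It was a tRNA-Leu in all 282 elements that matched within 3 mismatches. These elements are copies of one family, so the matches are not independent of each other. Of these matches, 11 were exact and 270 had exactly 3 mismatches, as in the 3 sequences shown first above. The sequence TGGTACCAGGAGTGGGGT was the nearest tRNA-Leu version in 274 elements. No repeat annotation was used here, so the family was not matched to a name.

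Domains of the family followed the body of the element and ended before its edges on most copies. Of the 303 domains, 292 lay on a full-length element. The median domain began 739 bp inside the 5′ end and stopped 364.5 bp short of the 3′ end, and 192 of the 292 (65.8%) lay wholly within the element. Where a domain ran past the element it did so mostly at the 3′ end. The domain passed the 3′ end by over 500 bp in 52 elements (17.8%) and the 5′ end by as much in 6 (2.05%). At a margin of 2000 bp the counts were 19 and 0.

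The 52 extensions covered 121.4 kb beyond the elements, with a median of 1390 bp. The longest ran 11048 bp from an element into Dst (dystonin, a linker of the cytoskeleton) and made the widest domain, chr1:34078645-34095802. GFP-positive peaks covered 100% of that domain and GFP-negative peaks 1.38%. The next was chr17:27286549-27296939, which reached 8886 bp past the 3′ end and overlapped no gene. An extension of 7809 bp lay in chr7:11021707-11035772, also without a gene, and one of 4709 bp in chr11:33061376-33073449, which overlapped the non-coding Gm12114. The chr7 domain was 84.98% soft-masked with a median copy number of 19, against 54.1% and 1 for the Dst domain. Of the 52 extended domains, 23 overlapped a gene and 3 held a start site of a protein-coding gene. Sequence past an element is not part of that element but can hold other repeats. Reads there can be placed at the locus itself when that sequence is single-copy.

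A similar profile was seen on copies of the element outside the domains. A genome-wide search for the family's 31-base words found 591 full-length elements on the autosomes. Domains covered at least 50% of 291 of them, which are called within domains, and the other 300 are called outside. GFP-positive peaks covered a median of 72.7% of the element outside domains and 88.4% within them, and at least 50% of 253 of the 300 outside elements. GFP-negative peaks touched none of the sequence in 579 of the 591 elements (98.0%). The search words came from the domains, and reads of one copy can be placed on another, so these counts describe the family and not each locus.

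GFP-positive cover rose steeply inside the 5′ LTR, fell steeply into the 3′ LTR and declined slowly beyond it. The mean was 76.8% just before the 3′ LTR, 33.1% within it and 44.4% at its far end. Averaged over the 591 elements, GFP-positive peaks covered 31.4% of the 5′ LTR, 83.6% of the internal part and 42.1% of the 3′ LTR. Reads that lie wholly within an LTR can be placed at either LTR of an element or at another copy. The values of the LTRs are therefore not separate measurements. In the 1 kb before the element the cover was 11.8%, and in the 1 kb after it 36.2%. Between 2 and 3 kb from the element it was still 26.2% on the 3′ side and 6.78% on the 5′ side. GFP-negative peaks covered 0.823% and 1.02% of the 1-kb flanks. The 3′ flank of 1 kb had the higher GFP-positive cover in 302 elements and the 5′ flank in 44, with no difference in 245. In 234 of these 245, neither flank had any cover. Among the 300 elements outside domains, the flanks were covered to 8.11% before and 28.5% after the element. With no domain within 3 kb, which left 286 elements, these values were 6.91% and 25.9%, and 124 had more cover on the 3′ side against 19 on the 5′ side. Neither flank had any cover in 142 of the 286.

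**Figure D3:**
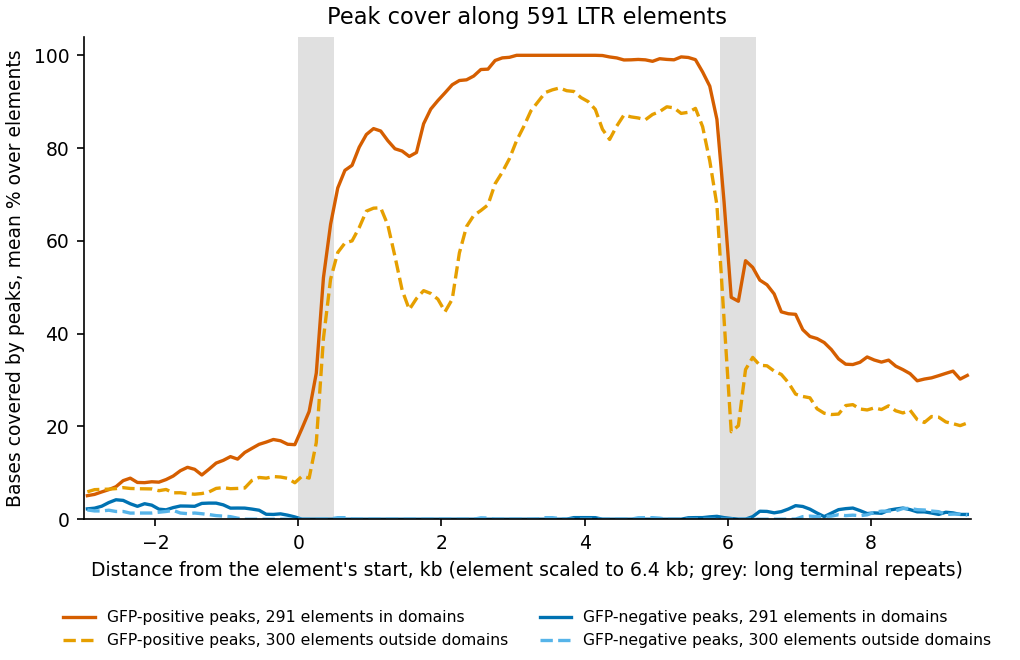
Mean share of bases covered by peaks (y axis, %) along 591 LTR elements and 3 kb on either side (x axis, kb from the start of the element, each element scaled to 6.4 kb and read in its own direction; grey bands, LTRs), for GFP-positive and GFP-negative peaks over elements within and outside the domains. GFP-positive cover stays higher past the 3′ end (36.2% in the 1 kb after the element) than before the 5′ end (11.8%), and GFP-negative cover is near 0 on the element and reaches at most 4.19% in the flanks.

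Over all elements, orientation within a protein-coding gene showed a small excess of the opposite strand, which was larger outside the domains than in them. Of 170 elements inside coding genes, 100 ran against the gene (58.8%, 51.3 to 65.9) and 70 along it. For elements in domains the counts were 49 and 41 (54.4% opposite, 44.2 to 64.3), an interval that includes equal shares. Outside domains they were 51 and 29 (63.75% opposite, 52.8 to 73.4), and the difference was not tested.

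A few members of the family went against its pattern. The domain chr8:52302478-52309015 was covered to 99.9% by GFP-negative and to 86.7% by GFP-positive peaks, with fold enrichments of 26.6 and 23.4. Its GC content was 59.2%, and the nearest LTR of the family was 254697 bp away, so it joined the family through other shared words. In chr11:99820674-99827020, GFP-negative peaks covered 36.1%. In 13 of the 17 family domains with both lists, the GFP-negative share was under 10%.

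The other domains with both lists were the most numerous kind and were gene-rich. Of these 620 domains, 486 (78.4%) held a start site, against a background of 19.2% of all merged regions and 13.8% of 5-kb windows. A start site of a protein-coding gene lay in 453 (73.1%), and 352 held at least 2 such start sites. Annotated genes covered a median of 90.9% of the domain and exons 31.1%, and 24 of the 620 overlapped no gene. The median copy number of the 31-base words was 1 in 592 of them. The median fold enrichment was 10.2 for GFP-negative and 7.31 for GFP-positive peaks, and the median −log10 q was 21.8 and 12.4.

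Compared with regions of 2 to 4 kb with both lists, these domains held a start site more often but were poorer in CpG. A wider region has more room for a start site, so the higher share follows in part from the choice by width. Of the 6089 narrower regions, 68.4% held a start site and 12.01% overlapped no gene. The narrower regions still hold repeat families (401 were multi-copy). With the LTR and tandem families put back, the 647 domains with both lists gave 75.6% with a start site and 6.801% with no gene. GC content differed little, with medians of 56.4% and 56.2%, and was higher in the domains on 11 of 19 chromosomes. The ratio of CpG dinucleotides observed to those expected from base composition was lower in the domains, at 0.427 against 0.536 (0.425 with the families put back), and this held on 18 of 19 chromosomes. Both were above the 0.169 of 5-kb windows. Start sites were less dense, at 6.38 per 10 kb of domain against 9.73 per 10 kb in the narrower regions, with 0.525 per 10 kb in the windows and 0.138 per 10 kb in the LTR family. In the 390 other domains whose coding start sites all belonged to a single gene, the domain reached 2194 bp upstream and 2652 bp downstream of the start at the median, and further downstream in 220 (56.4%).

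The widest of these domains covered whole genes or ran across neighbours. The domain chr10:79972804-79989340 was 16537 bp wide and contained all of Tmem259, a membrane protein gene of 9383 bp, with start sites of Grin3b (an NMDA receptor subunit) and Cnn2 (calponin, an actin-binding protein). GFP-negative peaks covered 97.7% of it and GFP-positive peaks 94.2%. The domain over Zbtb7a, a zinc finger repressor of blood development, spanned 14848 bp at chr10:81134148-81148995. A single GFP-negative peak covered it whole, with a fold enrichment of 33.8, while 4 GFP-positive peaks covered 91.2%. The domain chr15:76170336-76184734 lay in Plec (plectin, a cytoskeletal linker), held no start site and was 80.4% exonic. At chr8:69879258-69892732 the domain took in all of Cilp2, a cartilage matrix protein gene, and the start of Yjefn3, with 95.8% GFP-negative and 90.3% GFP-positive cover. Prr12 and Prrg2 shared a domain of 12498 bp, Ahnak2 held one of 11254 bp with 98.8% exonic sequence, Isyna1 (inositol phosphate synthesis) and Ssbp4 shared one of 10857 bp, and Crlf2 (a cytokine receptor) held one of 11430 bp. The Ahnak2 domain had a median copy number of 14.

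In all, 185 annotated genes lay wholly inside a domain. Protein-coding genes made up 58 of them, miRNA genes 29, rRNA genes 19 and lincRNA genes 17. After Tmem259 and Cilp2, the longest were Nkpd1 at 7219 bp and Kiss1r, the kisspeptin receptor gene, at 5303 bp. Junb, a member of the AP-1 transcription factors, lay in a domain of 8557 bp with 97.9% GFP-negative and 70.5% GFP-positive cover.

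A few of these domains were covered very unequally, more often in favour of the GFP-positive list. The GFP-negative list covered under 10% in 8 of the 620 and the GFP-positive list in 2. At a limit of 50%, the counts were 59 with the GFP-positive list alone above it and 44 with the GFP-negative list alone above it. One of the 2, a domain in Gse1 at chr8:120406979-120412422, was covered whole by GFP-negative peaks and to 9.88% by GFP-positive peaks. Over the 620 other domains with both lists, GFP-negative peaks covered 82.9% and GFP-positive peaks 84.8% of the sequence.

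The strongest and the most extreme domains were of several kinds. By −log10 q the highest was chr17:39842997-39848806, at 459.8 among GFP-negative and 521.8 among GFP-positive peaks but fold enrichments of only 5.18 and 5.22. It covered Gm26917 and Gm42418, whose transcripts are known to hold ribosomal RNA sequence, and had a GC content of 64.9%. The next were a domain at Il12rb1 (an interleukin receptor; fold enrichments 48.3 and 25.1), one in Muc19 (a mucin; 12.9 and 13.02), one at Rab3a (a synaptic vesicle GTPase; 41.8 and 21.5) and one at Cnnm2 (a magnesium transporter; 48.7 and 24.5). The copy number was 7 for the Muc19 domain and 1 for those at Il12rb1, Rab3a and Cnnm2. GC content was highest at Nol4l, 67.9%, followed by Flg (filaggrin, of the skin barrier; copy number 15) at 66.5% and Adgrb1 (an adhesion receptor) at 65.3%. It was lowest at Zscan4d, 40.3%. Annotated start sites were most numerous at Nubp2 and Spsb3, which shared a domain with 21, and at Pygm (muscle glycogen phosphorylase) and Rasgrp2, with 20. Nr1h2 (a sterol receptor), Cracr2b with Cd151, and Tle3 (a corepressor) each had 16 in their domains, many of them alternative starts of the same gene.

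Other domains were unevenly spread along the genome. Chromosome 8 held 78.8 of them per 100 Mb, chromosome 10 60.4 and chromosome 11 57.3, against 4.804 on chromosome 14. LTR family domains varied less, from 7.65 per 100 Mb on chromosome 10 to 19.1 on chromosome 13. Of the 674 other domains, 266 (39.5%) had another within 50 kb. The densest megabase was chromosome 10 from 80000001 to 81000000, with 27 domains at genes such as Dot1l (the H3K79 methyltransferase), Mbd3, Gpx4 and Cirbp. The next megabase held 19, and so did chromosome 8 from 70000001 to 71000000, with Jund, Ell and Rab3a.

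A single gene, Gse1, held 11 domains between chr8:120227226 and chr8:120575513. Gse1 encodes a coiled-coil protein associated with the CoREST corepressor. The domains were 4281 to 14258 bp wide, and GFP-negative peaks covered 91.3% to 100% of each, whereas GFP-positive cover ranged from 9.88% to 95.1%. Start sites lay in 5 of them. Bahcc1, a chromatin reader gene, followed with 4 domains.

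**Figure D4:**
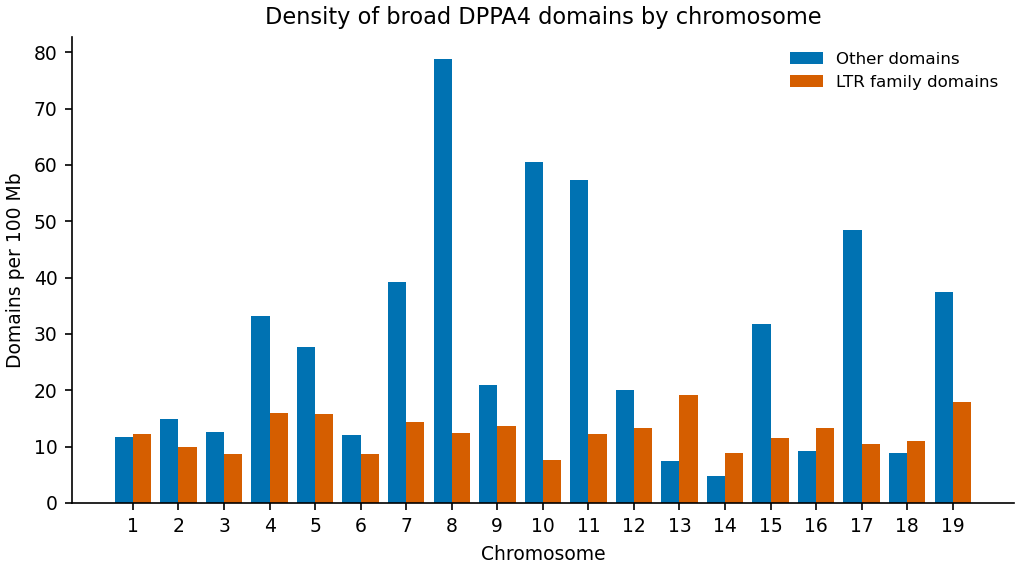
Domains per 100 Mb (y axis) on chromosomes 1 to 19 (x axis), separately for the 674 domains outside the LTR and tandem families (other domains) and for the 303 LTR family domains. Other domains range from 4.804 per 100 Mb on chromosome 14 to 78.8 on chromosome 8, while the LTR family stays between 7.65 and 19.1.

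Outside the LTR family, 47 domains held GFP-positive peaks alone, and most lay next to one of its LTRs. Their median width was 4904 bp, median GC content 46.5% and median soft-masked share 26.7%. The median copy number of the 31-base words was 1 in 37 of them, although parts of such a domain can still be multi-copy. An LTR of the family lay in 14 of the 47 (29.8%, 18.7 to 44.0) and within 5 kb of 37 (78.7%, 65.1 to 88.0), with a median distance of 2418 bp over all 47. For other domains with both lists the share within 5 kb was 31 of 620 (5.00%, 3.54 to 7.01) and the median distance 495540 bp, and for 5-kb windows the share was 1.22%. Domain and LTR were related in direction as well. Of the 23 domains that lay within 5 kb without overlap, 21 were downstream of the LTR in the direction of its element and 2 upstream, and in all 14 that overlapped, more of the domain lay downstream than upstream. Some of these domains continue a family domain past its 3′ end across a short gap between peaks. Examples are chr9:22712930-22719022 beside chr9:22719174-22723327 and chr4:107500897-107506600 beside chr4:107506939-107513409. The pattern is therefore in part the 3′ extension described above, and such cases were not counted. Single-copy regions of 2 to 4 kb gave the same order at lower shares, with 116 of 275 (42.2%, 36.5 to 48.1) of those with GFP-positive peaks alone within 5 kb (65 downstream, 5 upstream) and 1.47% of those with both lists. The family was defined on domains that were themselves mostly in the GFP-positive list, so these shares are not independent of that list.

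Several of these domains ran into coding genes. The widest, chr5:33893462-33903684, began 443 bp downstream of an LTR and spread over 10223 bp of Nsd2, an H3K36 methyltransferase, and Nelfa, a subunit of the negative elongation factor, without reaching a coding start site. Its fold enrichment was 6.50 and its soft-masked share 12.98%. The domain chr8:124836208-124846214, from which a sequence is printed above, overlapped an LTR and ran 9820 bp downstream of it through Gm16163 and 2810004N23Rik. In Antxr1, a receptor for collagen and anthrax toxin, a domain of 9882 bp lay 1883 bp downstream of an LTR. Glis1, a zinc finger factor of the egg and early embryo, held 2 such domains, of 6660 and 5704 bp. At Tm9sf4 the domain chr2:153196495-153202614 had the highest fold enrichment of the group, 11.5. Coding start sites were covered in 8 of the 47, against 47.7% of all domains. Among the 8 were those of Iars (isoleucyl-tRNA synthetase) and Kifc3 (a kinesin).

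Genes of the 2-cell programme were part of this group. In the Zscan4 cluster on chromosome 7, domains lay over Zscan4d (chr7:11161785-11166413) and over part of Zscan4e (chr7:11304357-11310279), with fold enrichments of 4.68 and 4.63 and no GFP-negative peak. With a domain over Gm45551 and one on chromosome 12 they formed a sequence family of 4, all with GFP-positive peaks alone and a median copy number of 6. The domain at Sp110 and Sp140, nuclear body genes on chromosome 1, was 4124 bp wide and had the highest −log10 q of the 47 at 34.5, with a fold enrichment of 5.32 and a copy number of 2.

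The 7 domains with GFP-negative peaks alone were GC-rich and far from the LTR family, as were most other domains with both lists. Their median GC content was 58.5%, against 56.4% in other domains with both lists. None of the 7 lay within 20 kb of an LTR (upper bound 35.4%), against 40 of 620 (6.45%) of those with both lists. The widest, 6614 bp at chr15:101076586-101083199, held the start site of Fignl2, a fidgetin-like ATPase. Iffo2, an intermediate filament family gene, held 5111 bp at chr4:139595517-139600627, with the highest values of the 7 (fold enrichment 12.8, −log10 q 39.4). Sept9, a septin, held 4478 bp and Rbfox3, a neuronal splicing factor, held 4313 bp. The domain at 1700045I11Rik was 4997 bp wide with a copy number of 3. Domains of 4085 bp on chromosome 4 and 4186 bp on chromosome 17 overlapped no gene.

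The tandem-repeat family was covered by both lists. Its 10 domains lay on 6 chromosomes, had a median GC content of 60.3% and a median copy number of 2264, and 8 overlapped no gene. In 9 of the 10 the sequence repeated with a period of 208 bp, and in the other with 201 bp. GFP-negative peaks covered 91.3% of the family's 62.7 kb and GFP-positive peaks 99.3%. The widest, chr3:6296941-6308193, spanned 11253 bp, with fold enrichments of 20.7 and 15.8. The 30-base stretch printed above occurred between 12 and 48 times per domain.

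Clusters of non-coding RNA genes formed further small families with both lists. The 5S rRNA cluster on chromosome 8, from position 123537061, held 5 domains. Of 165 genes with a 5S name (n-R5s), 15 (9.09%) lay in a domain and 34 (20.6%) in any merged region. Other rRNA genes of the cluster, such as Gm22109, lay in these domains but are outside that count. The widest domain of the cluster, 11168 bp, held 6 n-R5s genes, with 91.6% GFP-negative and 86.0% GFP-positive cover. Of 386 tRNA genes, 17 (4.404%) lay in a domain and 169 (43.8%) in any merged region. On chromosome 1 the neighbouring domains chr1:171070370-171076208 and chr1:171077553-171082764 held 5 tRNA genes each, and domains at chr3:96448730-96454144 and chr3:96456339-96463289 held 2 each. Of 1292 snRNA genes, 10 (0.774%) lay in a domain and 5.88% in any merged region, and of 1442 snoRNA genes the values were 1 (0.0693%) and 6.10%. For protein-coding genes the share in a domain, by start site, was 2.53%.

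Gene lists for the cell states and for promoter types showed few members in domains. Of 20807 protein-coding genes, 526 had a start site in a domain, a background of 2.53%, and 14265 had one in any merged region. Among 28 pluripotency genes, 3 lay in a domain (10.7%, 3.71 to 27.2). They were Lin28a, an RNA-binding inhibitor of let-7, with 95.04% GFP-negative and 72.5% GFP-positive cover, Tet1, a 5-methylcytosine oxidase, with 100% and 91.4%, and Mycn. Among 103 developmental transcription factors, 6 did (5.83%, 2.697 to 12.1), all with both lists, namely Tbx1, Sox10, Hand1, Irx5, Nkx2-5 and Zic5. The Irx5 domain was the strongest, with fold enrichments of 23.9 and 13.4. Hoxa5 was the only one of 39 Hox genes, with 92.1% GFP-negative and 97.1% GFP-positive cover.

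Of 34 genes of chromatin repressors, Daxx, Trim28 and Ring1 lay in a domain (8.82%, 3.05 to 23.0). Trim28, the corepressor of KRAB zinc finger proteins, had fold enrichments of 20.99 for GFP-negative and 17.7 for GFP-positive peaks. Among 54 signalling genes there were 4 (7.41%, 2.92 to 17.6), namely Gli1, Notch1, Nodal and Inhbb. For Nodal, a ligand of the early embryo, the fold enrichments were 17.8 and 5.18. Replication-dependent histone genes gave 7 of 67 (10.4%, 5.15 to 20.03), but these shared 3 domains, for example Hist1h1a, Hist1h3a and Hist1h4a in 4969 bp on chromosome 13. Of 40 2-cell genes, 3 lay in a domain (7.5%, 2.58 to 19.9), Zscan4d, Gm6763 and Sp110, and all 3 domains held GFP-positive peaks alone.

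The remaining lists were near or below the background. Cytosolic ribosomal protein genes gave 2 of 76 (2.63%, 0.725 to 9.10), Rpl36 and Rpl23a, although 73 of the 76 had a start site in some merged region. The Rpl23a domain had 15.4% GFP-negative and 100% GFP-positive cover. Zinc finger Zfp genes gave 7 of 385 (1.82%, 0.884 to 3.70), with Zfp423, at 6197 bp, the widest. None of 29 germline genes (upper bound 11.7%), 35 imprinted genes (9.89%), 56 protocadherin genes (6.42%) or 1411 olfactory and vomeronasal receptor genes (0.272%) had a start site in a domain. The intervals of the pluripotency, developmental, chromatin repressor, signalling, histone and 2-cell lists lay above the background of 2.53% and that of the receptor genes below it, while the others include it. That background counts all coding genes, of which 68.6% had a start site in any merged region. Among the lists above the background, this share was 81.6% to 100%, except in the 2-cell list, where it was under 68.6%. For the receptor genes it was 0.780%. Whether the lists differ from the coding genes with a start site in any merged region was not tested. Members of a list can share a domain, and the lists were chosen with earlier results of these data known.

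**Figure D5:**
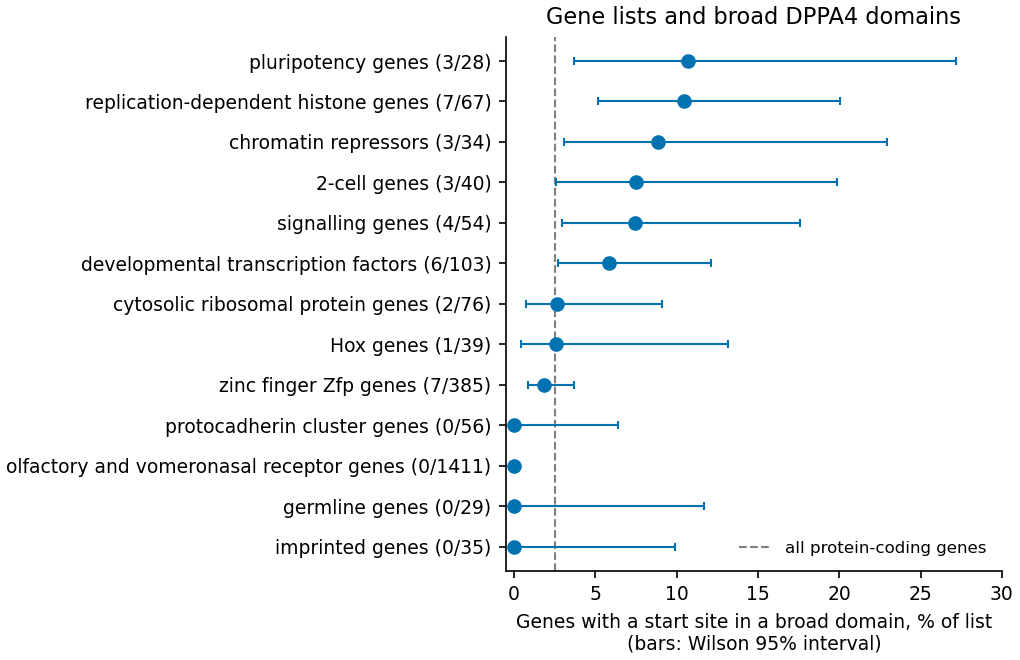
Share of each gene list with a start site in a domain (x axis, %; points, with Wilson 95% intervals as bars; numbers in brackets give genes in a domain over genes matched), for 13 lists (y axis). The dashed line marks all protein-coding genes at 2.53%, and the points run from 0 to 10.7%.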

How the data were processed

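DPPA4 CUT&RUN peak lists of GFP-negative and GFP-positive cells were analysed. The authors trimmed reads with bbduk, aligned them to mm10 with STAR 2.7.10 (each multimapping read kept at a single best or random position), removed duplicates with Picard 2.26.0 and blacklisted regions, and called peaks with MACS2 2.2.6 on fragments. Whether IgG served as control in peak calling is not given in the sources used here. Fold enrichment as deposited is a linear ratio at the summit, q-values are deposited as −log10 (lowest 1.30), the deposited score was not used, and the deposited intervals and summit offsets are positions in bp.

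Peaks were merged at 1 bp overlap, and a domain's fold enrichment and −log10 q are the highest of its peaks in each list. Genes and start sites came from GENCODE vM21 (the readthrough gene Gm20388 was left out of gene cover and names), tRNA genes from RefSeq, and sequence and soft-masking from GRCm38.p6 (RefSeq). Copy number was the median genomic count of 31-base words sampled every 10 bp. Domains that shared at least 10% of all 31-base words of the smaller domain were linked into families. Members of a family can therefore be linked through other members alone. Elements were found from direct repeats spaced 4500 to 7500 bp. Copy counts, repeat pairs and families were tested on simulated data. Python 3.11.15, numpy 2.4.6 and pandas 2.3.3 were used.

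The domains and gene lists were chosen with earlier results of these data known. Domains named were the 10 widest, the 5 widest of each class, the 5 highest −log10 q, the 10 widest with a coding start site, the 3 widest of each of the 4 largest families, the 5 highest and lowest GC contents, the 5 with most start sites and the 5 on either side of the width limit, with list genes that had a start site in a domain. Other genes named were chosen after their values were seen. Some domains that this rule names are not reported here. Widths over 3 and 5 kb, stronger peaks, looser merging, stricter cover and single lists were tried as alternatives. Per-sample columns not used numbered 0.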

Additional observations from a re-analysis of the deposited data

Results flagged for a closer look

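Chromosomes X and Y, which the choice of domains left out, also held broad regions. Of 2072 merged regions on them, 21 were over 4 kb (1.01%, as on the autosomes), 16 on X and 5 on Y. Peaks of both lists lay in 10 of the 21, and GFP-positive peaks alone in 11. GFP-negative peaks alone lay in 0 of 21, and the counting limit of 3 would be 14.3%. At least 90% of the sequence was soft-masked in 10 of the 21, and the median width was 5457 bp. These were flagged as a signal in data that no comparison used.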

How the results depend on the processing

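No paired analysis was possible because both lists were called on pooled libraries and no test was run. For the same reason no replicate could be left out. In all, 55 alternative values were computed for 9 results, of which 41 moved by more than the interval of the value (or, for the number of domains, by over 1.5 times). These results are a count, shares and medians, so none has a direction that could reverse. For GFP-negative and GFP-positive cover the interval treated domains as trials. Cover is a share of sequence, so that interval does not measure its spread. Values below are given in the order share with both lists, GFP-negative cover, GFP-positive cover, median GC content, median CpG observed over expected, median soft-masked share, multi-copy share and share with a start site.

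A width limit of 3 kb gave 2584 domains with 75.2%, 62.0%, 85.96%, 54.8%, 0.384, 14.8%, 21.2% and 58.2%. A limit of 5 kb gave 472 domains with 59.5%, 48.2%, 92.0%, 52.2%, 0.279, 23.2%, 39.8% and 49.8%. With peaks of a −log10 q of at least 5, the share with both lists was 59.6%, GFP-positive cover 84.8% and CpG observed over expected 0.339. Merging peaks within 500 bp gave 2207 domains, 73.99% with both lists, 76.8% GFP-positive cover, 21.1% multi-copy and 58.5% with a start site. Where both lists had to cover at least 50% of the domain, 53.5% held both. The GFP-negative list alone gave 273 domains and the GFP-positive list alone 649. With start sites of coding genes alone, 47.7% of domains held one. In domains of copy number 1, GC content was 56.1%, CpG observed over expected 0.406 and the soft-masked share 12.3%.

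An alternative chosen after seeing the data left out the LTR and tandem families. It gave 674 domains, with 91.99% holding both lists, 77.2% and 85.1% cover, 56.1% GC, 0.411 CpG observed over expected, 12.7% soft-masked, 1.93% multi-copy and 74.9% with a start site. Values over all domains thus depend on these families, which were not left out separately. The reads behind each list are unknown, which limits every comparison of their peak widths.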
